A study of Mus musculus with 2 samples.

Results

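Small nucleolar RNAs (snoRNAs) and small Cajal body RNAs (scaRNAs) were examined in RiboLace ribosome profiling libraries of newborn mouse brain. The members were the genes whose transcript the deposited table types as snoRNA or scaRNA, 1 per Ensembl gene. They numbered 1536 of the 45578 genes in the table, 1493 typed snoRNA and 43 typed scaRNA. By symbol, 83 began with Snord (the C/D box class), 42 with Snora (the H/ACA box class) and 11 with Scarna, and the other 1400 carried other names. Predicted gene symbols of the Gm type made up 1376 of the 1536.

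RiboLace uses beads with a puromycin analogue to pull down ribosomes, here from nuclease-treated cytoplasmic lysate of whole brain. Fragments of 25 to 35 nt were then size selected, so a count is a short fragment assigned to a transcript. Both libraries came from 1 group, control mice at postnatal day 5 with the genotype Smn+/-; SMN2tg/0. These heterozygous Taiwanese mice carried 1 disrupted copy of mouse Smn and a human SMN2 transgene on an FVB background, and no mouse without these alleles was included. The labels call the 2 libraries biological replicates, while the design text speaks of a single mouse, so the spread between them may be technical. With no second condition, the comparison made here was between the 2 libraries, and every test compares these libraries rather than conditions.

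Most snoRNAs guide chemical modification of other RNAs in the nucleolus. C/D box snoRNAs direct 2′-O-methylation, H/ACA box snoRNAs direct pseudouridylation, and a few of each class are needed for cutting the ribosomal RNA precursor. scaRNAs do the same for spliceosomal RNAs in Cajal bodies. Most mammalian snoRNAs are released from introns of host genes and stay in the nucleus. The brain is known for tandem arrays of C/D snoRNAs in the imprinted Snhg14 region, where loss of the SNORD116 cluster is linked to Prader-Willi syndrome in humans.

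Some of these RNAs are known to contain the hairpin of a microRNA (miRNA), and those are the members for which a sequence is shown. In RefSeq (GRCm38.p6), 12 members overlapped a miRNA hairpin or shared its name, and together they held 43 counts in replicate 1 and 54 in replicate 2. No hairpin of the 12 had an entry in the table apart from that of its member, and some members, such as Mir1839, carry the name of the hairpin. The 3 with a mean of at least 10 counts were Scarna13, Mir1839 and Scarna3a. Their mature miRNAs are shown because these short sequences, of 20 to 24 nt, lie in a hairpin matched to the member that was counted. Mir1839 shares its name with its hairpin, and the place of the 73-nt hairpin within the 127-nt member was not checked. The mature sequences are shorter than the selected fragments of 25 to 35 nt, so the counts are not taken as counts of mature miRNAs. Capitals mark the seed, bases 2 to 8, and the 5 seeds all differ.
mmu-miR-1839-5p, in Mir1839, hairpin at chr7:81529916-81529988, plus strand: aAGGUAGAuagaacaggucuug
mmu-miR-1843b-5p, in Scarna3a, hairpin at chr1:159340358-159340423, plus strand: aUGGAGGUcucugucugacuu
mmu-miR-1843b-3p, in the same hairpin: cCGAUCGUuccccuccauac
mmu-miR-3069-5p, in Scarna13, hairpin at chr12:105031077-105031141, minus strand: uUGGCAGUcaagauauuguuuagc
mmu-miR-3069-3p, in the same hairpin: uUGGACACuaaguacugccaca

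The libraries differed in depth, with 343552 counts in replicate 1 and 120282 in replicate 2, a ratio of 2.86. These gene totals take the most counted transcript of each gene, and every share below is a share of them. Levels are in CPM, counts scaled to library size with edgeR's TMM factors. A single fragment came to 2.71 CPM in the deeper library, replicate 1, but to 8.93 CPM in the other. A count of 0 therefore allowed up to 8.13 and 26.8 CPM, which is 3 counts. All 12 brain marker genes checked passed the count filter, at 0.922% and 0.927% of counts, and the liver markers Alb and Apoa2 were at 0. The share of the 2 mitochondrial ribosomal RNAs went from 0.323% in replicate 1 to 3.61% in replicate 2, and other short non-coding classes were also higher in replicate 2. Their part in the results below was not tested.

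snoRNAs and scaRNAs were a small part of each library, and a larger one in replicate 2. They held 2201 counts in replicate 1, which was 0.641% of the gene total (95% Wilson interval 0.615 to 0.668). In replicate 2 they held 1785 counts, or 1.48% (1.42 to 1.55). The mean share was 1.06% ± 0.596 (SD, n = 2), and the share was 2.32 times higher in replicate 2. With the isoforms of each gene summed it was 0.302% and 0.793%, and without the 2 large arrays described below 0.293% and 0.703%, so the level rests on these choices and the direction did not change. Intervals cover counting error only, since PCR copies of a molecule were not told apart and copies of a gene may share fragments.

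Few members were seen at all. A count was found for 425 members in replicate 1 and 324 in replicate 2, and 279 were seen in both. With replicate 1 thinned to the gene total of replicate 2, the order turned, with 279 members in replicate 1 against 324 in replicate 2, and 201 in both. At full depth, in either library 470 members had a count, 30.6%, against 46.0% of all genes in the table. The other 1066 were at 0 in both libraries and were not detectable at this depth. In whole brain, fewer cells of a type and less RNA per cell cannot be told apart.

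A mean of at least 10 counts was reached by 89 members, 5.79% of them, against 11.9% of all genes. Each was tested with a 2-sided exact binomial test against the ratio of effective library sizes, with Benjamini-Hochberg adjustment at 0.05 over all 5436 genes past the same filter. Of the 89 members, 41 were called, all higher in replicate 2 and 0 lower. Over all tested genes 4.14% were called, 3.99% higher and 0.147% lower in replicate 2, beside 46.1% of the members. The filter was on the mean of both libraries, and 11 of the 89 reached it with under 10 counts in replicate 1, through their counts in replicate 2. All 11 were called, as were 30 of the 73 with at least 10 counts in each library and 0 of the 5 with under 10 in replicate 2. These groups were formed from the same counts that the test compares. That all 11 and 0 of the 5 were called is therefore largely set by the grouping. With a preset biological coefficient of variation of 0.2 in edgeR's exact test, 7 of the 89 were called, against 2.41% of all genes. The log2 ratio of replicate 2 to replicate 1, on log2(CPM + 1), had a median of 1.69 over the members and 0.0041 over all tested genes. It was above 0 for 88 of the 89, and ranged from -0.52 for Gm24949 to 5.97 for Scarna8.

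**Figure D1:**
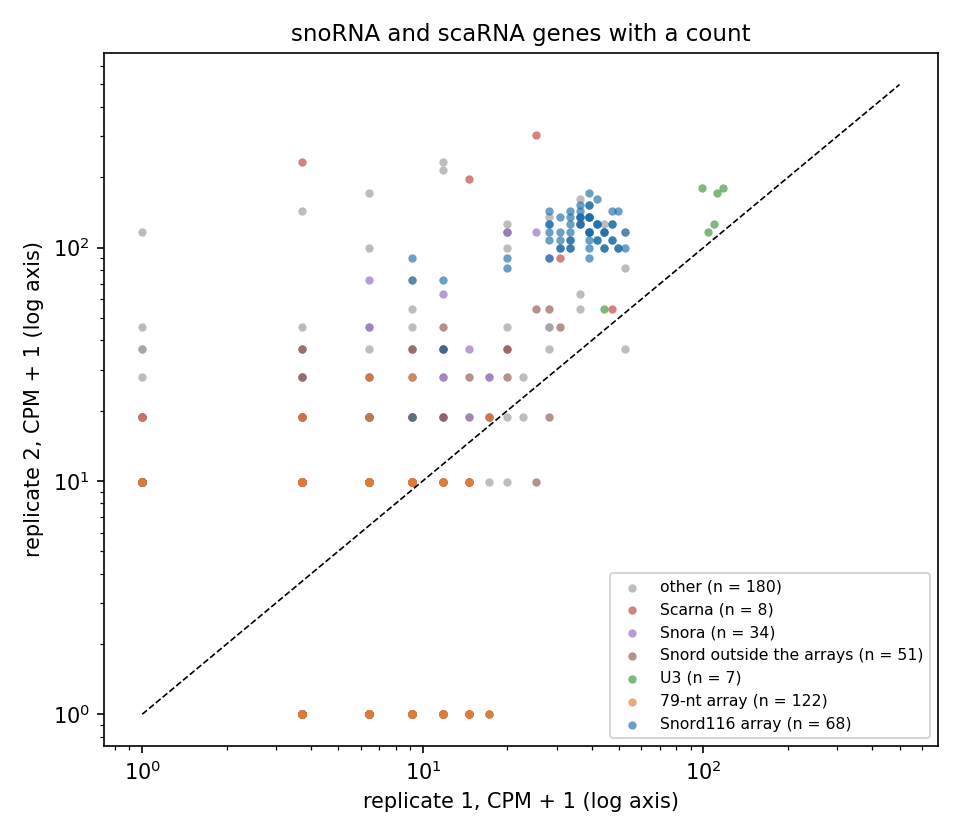
CPM + 1 in replicate 1 (x, log axis) and replicate 2 (y, log axis) for the 470 members with a count; each point is 1 gene, coloured by group, and points overlap at low counts. The dashed line marks equal values: the Snord116 array and the Scarna genes lie mostly above it, and the U3 genes lie close to it.

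The Snord116 array was the most abundant group of members. It was defined here as the 68 members that were named Snord116-like or were 92 to 94 nt long inside the RefSeq span of Snhg14 on chromosome 7, and 66 of them were 94 nt long. Only Snord116l1 and Snord116l2 carried the name in the deposited table, and 17 did in the name table used here. RefSeq lists Snord116 as a synonym of 1 other copy, Gm26504. The array held 39.8% of all member counts in replicate 1 and 49.0% in replicate 2.

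The array had almost the same raw count in both libraries, 876 in replicate 1 and 875 in replicate 2, although replicate 1 was the deeper. Its share was 0.255% (0.239 to 0.272) in replicate 1 and 0.727% (0.681 to 0.777) in replicate 2, which was 2.85 times higher. All 68 copies had a count in each library. Single copies held 3 to 19 counts in replicate 1, with a median of 14, and 2 to 19 in replicate 2, with a median of 13. Most copies were alike, with 61 and 63 of the 68 between 10 and 19 counts. The variance over copies divided by the mean was 1.07 and 0.640.

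The copies differed little in their ratio between the libraries. Of the 61 copies past the count filter, 27 were higher in replicate 2 by the exact binomial test, and the median log2 ratio was 1.69. Snord116l1 held 13 and 14 counts in replicates 1 and 2, so its log2 ratio was 1.80 (counting SE 0.546, exact binomial test, adjusted p = 0.0473). Snord116l2 held 17 and 14, a log2 ratio of 1.42, and missed the threshold (exact binomial test, adjusted p = 0.167). The highest ratio was that of Gm23862, with 10 and 16 counts and a value of 2.36, and the lowest that of Gm23953, with 19 and 11 counts and 0.92. These copies share their length and their place, their sequences were not compared here, and a fragment that matches several may have been counted for each. The 876 counts of replicate 1 could then stand for as few as 19 fragments, so the 27 calls are not 27 independent results. With the preset variation of 0.2, 1 copy of the array, Gm23862, was called.

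The array beside it held a smaller share in replicate 2, not a larger one. Inside the same Snhg14 span lay 133 members of 78 or 79 nt, 129 of them 79 nt long, which neither table gives a family name and which are called the 79-nt array here. By RefSeq order they lie between Ube3a, a ubiquitin ligase gene, and Ipw, a non-coding RNA gene. The first copies of the Snord116 array, Gm23862 and Gm26504, lie inside Ipw, and the rest of that array follows. As background, the mouse Snhg14 region is known for Snord115 and Snord116 copies, but no member was named Snord115. The 79-nt array held 317 counts in replicate 1 and 64 in replicate 2. Its share was 0.0923% (0.0827 to 0.103) and then 0.0532% (0.0417 to 0.0679), so it was lower in replicate 2 by a factor of 0.577.

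Single copies of the 79-nt array were sparse. They held 0 to 6 counts in replicate 1, with a median of 2, and 0 to 3 in replicate 2, with a median of 0. In replicate 1, 16 copies were at 0, and in replicate 2, 79 were. None reached the filter for the test per gene. Per length, the array summed to 81.8 CPM per kb in replicate 1 and 54.4 in replicate 2, against 372 and 1223 CPM per kb for the Snord116 array. If shared fragments were counted for every copy, the 317 and 64 counts could stand for as few as 6 and 3 fragments. The difference between the arrays was not tested.

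**Figure D2:**
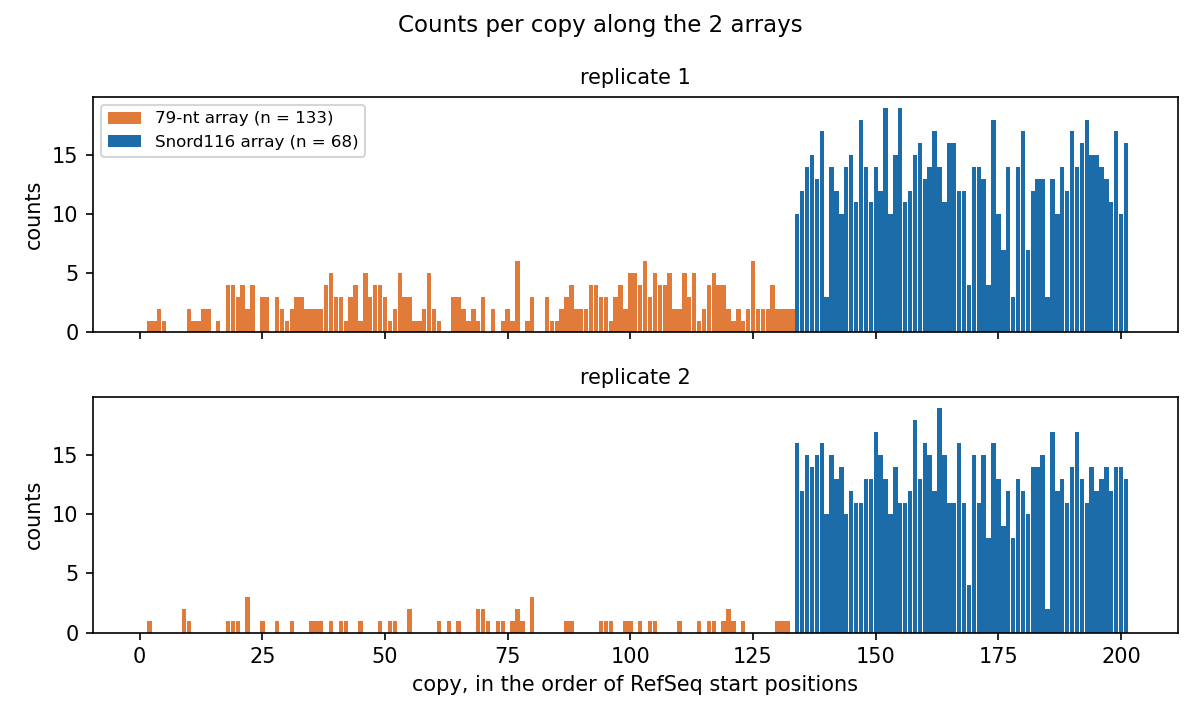
Counts per copy (y) of the 79-nt array (133 copies) and the Snord116 array (68 copies), in the order of their RefSeq start positions (x), in replicate 1 (top) and replicate 2 (bottom). Bars are single copies without error bars; the Snord116 copies reach 19 counts in both libraries, while the 79-nt copies reach 6 in replicate 1 and 3 in replicate 2.

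Of the other genes checked in this region, 1 of 4 passed the test. Snhg14, the long non-coding host RNA, held 17 counts in each library on its most counted isoform and was higher in replicate 2, with a log2 ratio of 1.70 (exact binomial test, adjusted p = 0.021). Snrpn, which encodes a spliceosomal Sm protein, held 163 and 39 counts, a log2 ratio of -0.34. Snurf held 57 and 12 counts (-0.52) and Ube3a 35 and 12 (0.17), and none of these 3 genes passed the test. Snhg14 lies antisense to Ube3a, and whether the counting used strand is not given in the sources used here. Snord64, a C/D snoRNA of the same region, held 6 and 2 counts, and Snord107 was at 0 in both.

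U3, the C/D snoRNA needed for the early cuts of the ribosomal RNA precursor, gave the highest single counts of any member in replicate 1. The 7 U3 genes held 220 counts in replicate 1 and 92 in replicate 2, with shares of 0.0640% (0.0561 to 0.0731) and 0.0765% (0.0624 to 0.0938), whose intervals overlap. Rnu3b1 held 43 and 20 counts, or 117 and 179 CPM, a log2 ratio of 0.61 (counting SE 0.388). Rnu3b3 held 41 and 19 counts, Rnu3b2 36 and 20, U3.2 40 and 14, Rnu3b4 38 and 13, and Rnu3a 16 and 6. The last U3 gene, ACEA_U3.1, held 6 counts and then 0, and was not tested.

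The 6 tested U3 genes had log2 ratios of 0.17 to 0.87, with a median of 0.45, and 0 of them was called. The smallest adjusted p was that of Rnu3b2 (exact binomial test, adjusted p = 0.454). With library totals in place of TMM, U3.2 and Rnu3b4 were just under 0. The Rnu3b genes and U3.2 are copies of 1 family, so their counts are uncertain one by one. Per length, U3 summed to 396 CPM per kb in replicate 1 and 545 in replicate 2. That placed U3 beside the Snord116 array in replicate 1, and below it in replicate 2.

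Other snoRNAs with roles in ribosomal RNA processing were near the limit of detection. Snord118 (U8), needed for maturation of the large subunit RNAs, held 2 counts in each library. Snord22 (U22) held 9 and 1, and Snord13 (U13) held 3 and 4. Snora73b and Snora73a, copies of the U17 snoRNA, held 5 and 1 counts and 1 and 1. Of the U14 genes, Snord14d held 0 and 1 counts and Snord14e 1 and 0, and Snord14a and Snord14c were at 0 in both. None of these reached the test.

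The C/D snoRNAs with a Snord symbol outside the array were low, and none of the 81 passed the filter. They held 155 counts in replicate 1 and 81 in replicate 2, with shares of 0.0451% (0.0386 to 0.0528) and 0.0673% (0.0542 to 0.0837). A count was found for 45 of them in replicate 1 and 33 in replicate 2, and the highest single counts were 11 and 6. Snord50a held 11 and 5 counts, Snord50b 10 and 6, Snord83b 9 and 6, and Snord67 10 and 2. Snord83b lies in Rpl3, a ribosomal protein gene with 63 and 21 counts.

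The H/ACA snoRNAs with a Snora symbol held a smaller share than the Snord genes in replicate 1 and a larger share in replicate 2 than in replicate 1. The 42 genes held 92 and 91 counts, shares of 0.0268% (0.0218 to 0.0328) and 0.0757% (0.0616 to 0.0929), and 34 of them had a count in either library. Only 3 passed the filter. Snora64, which lies in the ribosomal protein gene Rps2, held 7 and 13 counts and was higher in replicate 2, with a log2 ratio of 2.55 (counting SE 0.652, exact binomial test, adjusted p = 0.00288). SNORA50.1 held 9 and 13 counts and was also higher, by 2.21 (exact binomial test, adjusted p = 0.00989). Snora64 and SNORA50.1 had under 10 counts in replicate 1 and passed the filter through replicate 2. Snora20 held 10 and 10, a log2 ratio of 1.68 that missed the threshold (exact binomial test, adjusted p = 0.227). Snora35, a brain snoRNA in an intron of the serotonin receptor gene Htr2c, held 1 count in each library.

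The named classes were set against each other on their summed counts. They are sets of symbols and not all C/D or H/ACA genes. U3, with 220 and 92 counts, and the Snord116 array copies under Gm symbols were left out. The whole array held 876 and 875 counts, and no odds ratio was computed with it. With 185 and 109 counts for Snord (Snord116l1 and Snord116l2 included) and 92 and 91 for Snora, the odds of a Snord count were lower in replicate 2, with an odds ratio of 0.596 (2-sided Fisher's exact test, adjusted over 3 tests, p = 0.00754). Without Snord116l1 and Snord116l2 it was 0.528 (Fisher's exact test, p = 0.00188). On the members past the count filter, where those copies are the only Snord genes, it was 0.674 (Fisher's exact test, p = 0.36). These p-values cover counting error in 1 library each and take every count as independent, so shared fragments and PCR copies make them too small.

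**Figure D3:**
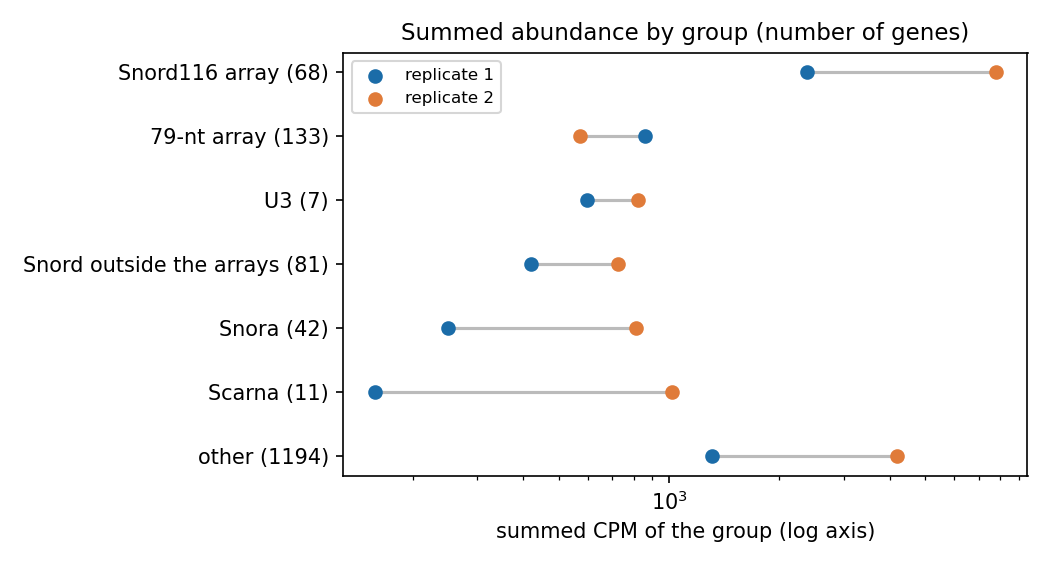
Summed CPM of each group of members (x, log axis) in replicate 1 and replicate 2, with a line joining the 2 values; the number of genes is in brackets. The Scarna genes show the widest gap, 157 against 1018 CPM, and the 79-nt array is the only group that is lower in replicate 2, 859 against 572 CPM.

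Of the groups of members, the Scarna genes showed the widest gap between the libraries in their summed counts. The 11 Scarna genes held 58 counts in replicate 1 and 114 in replicate 2, shares of 0.0169% (0.0131 to 0.0218) and 0.0948% (0.0789 to 0.114), a ratio of 5.61. Most of the 114 counts were those of Scarna10 (34), Scarna8 (26) and Scarna6 (22). The ratio of the group therefore rests largely on these genes, and the other tested Scarna genes differed less. Of the 6 that passed the filter, 4 were higher in replicate 2. By biotype instead of name, the 43 genes typed scaRNA held 95 and 184 counts, and 6 of the 8 tested were higher. Scarna10 is typed snoRNA in the table although its symbol begins with Scarna.

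Scarna8 had the highest log2 ratio, with 1 count in replicate 1 and 26 in replicate 2, or 2.71 and 232 CPM. It passed the filter mainly through replicate 2, as did Scarna6 and Scarna10. Its log2 ratio was 5.97 (counting SE 1.09, exact binomial test, adjusted p = 7.64e-14), and the single count in replicate 1 makes the size of that ratio imprecise. Scarna10 (U85), which has a C/D and an H/ACA part, held 9 and 34 counts, the highest count of any member in replicate 2. It was higher there by 3.58 (counting SE 0.524, exact binomial test, adjusted p = 1.59e-12). Scarna6 held 5 and 22 counts, a log2 ratio of 3.76 (counting SE 0.674, exact binomial test, adjusted p = 1.72e-08). These 3 were also called with the preset variation of 0.2.

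The other Scarna genes with enough counts differed less. Scarna13, which holds the hairpin of miR-3069 shown above, had 13 and 14 counts, and its log2 ratio was 1.80 (exact binomial test, adjusted p = 0.0473). Scarna3a, with the hairpin of miR-1843b, had 11 and 10 counts, a log2 ratio of 1.55 that was not past the threshold (exact binomial test, adjusted p = 0.264). Scarna2, a guide for the U2 spliceosomal RNA and the longest member at 414 nt, held 17 and 6 counts, a log2 ratio of 0.21 (counting SE 0.672). Mir1839, typed scaRNA and chosen after its values were seen for its hairpin, held 7 and 14 counts and was higher by 2.66 (exact binomial test, adjusted p = 0.00106). With under 10 counts in replicate 1, Mir1839 passed the filter through replicate 2.

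The 1194 members outside these groups mostly had no count in either library. They held 483 counts in replicate 1 and 468 in replicate 2, and 1014 of them were at 0 in both. Of the 13 that passed the filter, 8 were higher in replicate 2. Gm25776 (143 nt) held 4 and 26 counts, or 10.8 and 232 CPM, a log2 ratio of 4.30 (exact binomial test, adjusted p = 2.85e-11). Gm24507 (134 nt) held 2 and 19 counts, a log2 ratio of 4.73 (exact binomial test, adjusted p = 7.76e-09). Gm26083, typed scaRNA and 193 nt long, held 4 and 24 counts, a log2 ratio of 4.18 (exact binomial test, adjusted p = 3.57e-10). In replicate 1 each of these 3 was at 2 to 4 counts, below every U3 gene, and each passed the filter mainly through replicate 2.

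Gm24949, of 215 nt, was the only tested member with a ratio below 0. Its 19 counts in replicate 1 and 4 in replicate 2 gave a log2 ratio of -0.52 (counting SE 0.773), which did not pass the test. A further pair of 94-nt members without a RefSeq position, Gm22128 with 13 and 18 counts and Gm22285 with 16 and 14, was not counted in the Snord116 array.

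**Figure D4:**
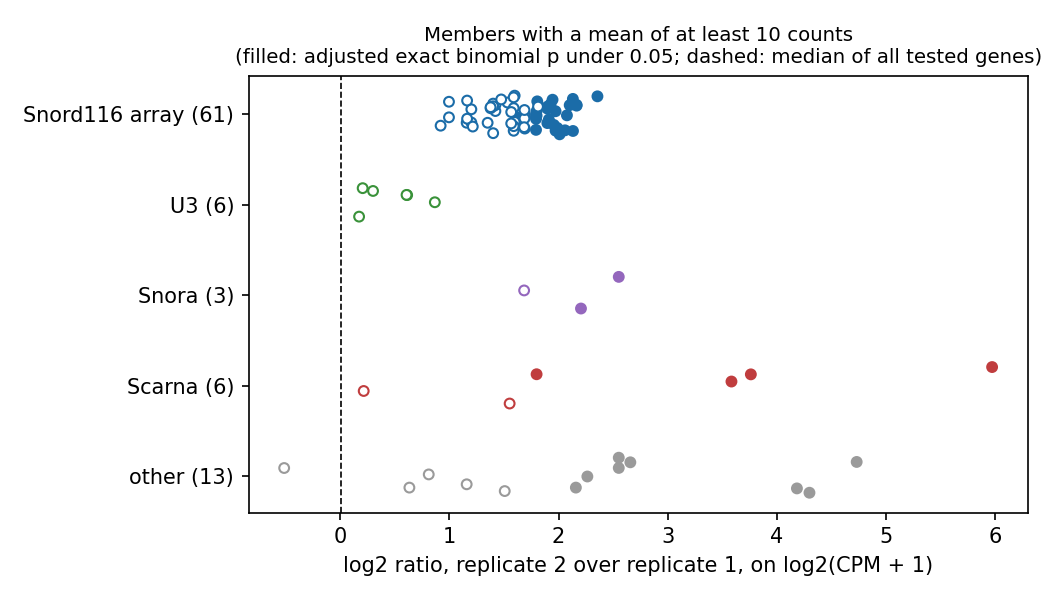
log2 ratio of replicate 2 to replicate 1 on log2(CPM + 1) (x) for the 89 members with a mean of at least 10 counts, by group; points are genes, spread vertically for view. Filled points passed the exact binomial test after adjustment and the dashed line is the median of all tested genes; the Snord116 copies lie between 0.92 and 2.36, and the U3 genes between 0.17 and 0.87.

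Host genes bear on what a snoRNA count holds, because a fragment of the snoRNA also matches a host isoform that keeps the intron. By RefSeq positions, 734 members lay inside a coding or long non-coding gene, 392 of them in a protein-coding gene. For Scarna10, the most counted isoform of its host Ncapd2, a condensin gene, was a retained-intron transcript with 7 and 30 counts, close to the 9 and 34 of Scarna10 itself. The coding isoform of Ncapd2 held 4 and 5 counts. For Snora64, the retained-intron isoform of Rps2 held 13 and 17 counts and the coding isoform 13 and 3. The non-coding host of Mir1839, 2900076A07Rik, held 8 and 15 counts against 7 and 14 for Mir1839. In these 3 cases the counts alone do not tell the member from its host transcript. Whether the counted host isoform holds the sequence of the member was not checked, and that of 2900076A07Rik is typed lincRNA. The most counted isoform of Tcp1, the host of Snora20, was also a retained-intron transcript. Tcp1 held 78 and 16 counts there, unlike the 10 and 10 of Snora20.

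Other hosts were counted differently from the member inside them. Haus6, the host of Scarna8, held 3 and 1 counts against 1 and 26. Gtf2a1, the host of Gm25776, held 20 and 6 against 4 and 26, and Tmem167, the host of Gm24507, held 6 and 6 against 2 and 19. Atg16l1 held 11 and 0 counts against 5 and 22 for Scarna6. These raw counts come from libraries of unlike depth. On log2(CPM + 1), the host ratios were 0.12 for Haus6, -0.016 for Gtf2a1 and 1.66 for Tmem167. Atg16l1, at 0 counts in replicate 2, was at -4.95. In these 4 pairs the host ratio was below that of the member, though Tmem167 was higher in replicate 2 as its member was. The 4 members were among the 5 with the highest log2 ratios, so a lower host ratio is largely set by that choice. Haus6, Tmem167 and Atg16l1 did not pass the count filter.

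Abundance per length did not follow length. Members under 70 nt summed to 63.7 CPM per kb in replicate 1 and 119.5 in replicate 2, and those from 70 to under 90 nt to 56.3 and 63.8. The bin from 90 to under 120 nt, which holds the Snord116 array, was at 103 and 327 CPM per kb, the highest bin in replicate 2. Members from 120 to under 140 nt, the usual length of an H/ACA snoRNA, were lowest at 5.74 and 23.1. In both libraries 700 of these 814 were at 0. Most of the bin, 775 members, lay outside the groups above, at 3.75 and 14.7 CPM per kb. Of those 775, 692 were at 0 in both. The 42 Snora genes, of all lengths, summed to 42.3 and 138 CPM per kb. The low value of the bin is therefore not that of the named H/ACA snoRNAs. Members from 140 to under 200 nt reached 21.3 and 91.0. Those of 200 nt and over, which hold U3, reached 113 and 245 CPM per kb, the highest bin in replicate 1. In every bin the value was higher in replicate 2, and least so from 70 to under 90 nt, where the mean was 60.04 ± 5.33 CPM per kb (SD, n = 2). That bin turns with the scaling, since its share of the gene totals was 0.144% in replicate 1 and 0.141% in replicate 2.

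**Figure D5:**
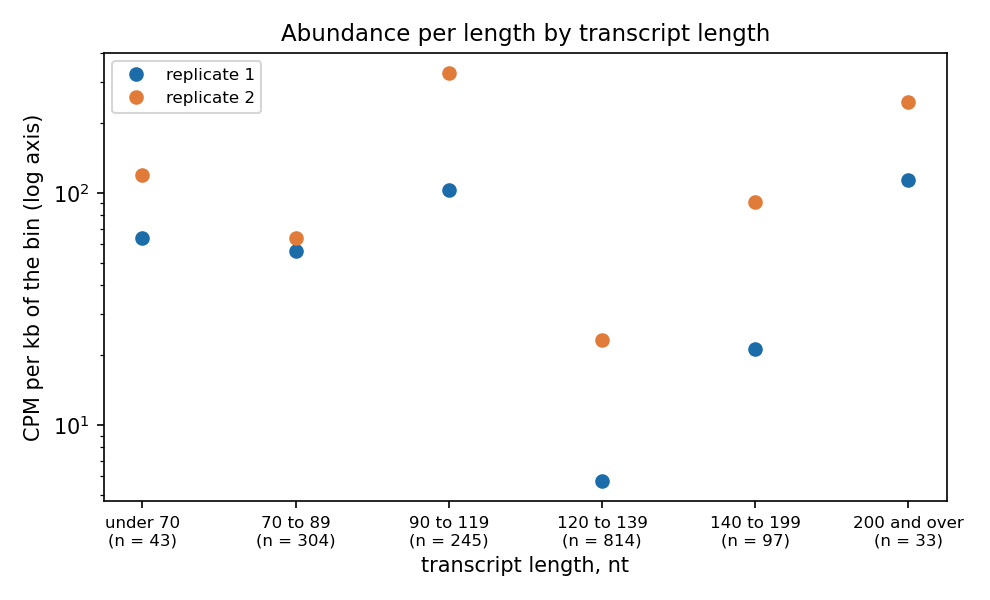
Summed CPM per kb of transcript (y, log axis) in 6 bins of transcript length (x, nt) for all 1536 members, 1 point per library. The bin that starts at 120 nt is lowest in both libraries, at 5.74 and 23.1, and the bin that starts at 90 nt is highest in replicate 2, at 327.

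The proteins that bind these RNAs were read from the same test. Of 24 genes for snoRNP and Cajal body proteins, 22 were found and 11 passed the filter. None of the 11 was called by the exact binomial test, and 0 had an unadjusted p under 0.05, with a median log2 ratio of -0.15. Fbl, the methyltransferase of C/D particles, held 36 and 6 counts, a log2 ratio of -0.85. Nop56, a C/D core protein, held 32 and 5 on its most counted isoform, a log2 ratio of -0.94. That isoform is a retained-intron transcript, and the coding isoform of Nop56 held 28 and 8 counts. Nop58, a further C/D core protein, held 16 and 7 counts (0.52). Of the H/ACA core, Nop10 held 24 and 5 counts and Nhp2 20 and 3, while Dkc1, the pseudouridine synthase, held 3 and 1. Coil, which encodes coilin, held 8 and 3 counts, and Smn1, of which these mice carry 1 intact copy, held 5 and 2.

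Other RNAs known to stay in the nucleus moved in part with the members. Of 10 such genes, 5 passed the filter and 3 were higher in replicate 2 by the exact binomial test. Rmrp, the RNA of ribonuclease MRP, held 90 and 168 counts, a log2 ratio of 2.62. Rpph1, the RNA of ribonuclease P, held 71 and 128 (2.56), and Malat1 held 44 and 38 (1.5). Meg3, with 25 and 18 counts, and Rian, with 20 and 4, did not pass the test. Terc, the H/ACA-type RNA of telomerase, was at 0 in both. The 10 genes together held 0.0780% of counts in replicate 1 and 0.305% in replicate 2. Their part in the members' difference was not tested.

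Other short RNAs also took larger shares in replicate 2. Spliceosomal small nuclear RNAs (snRNAs) held 6469 and 6832 counts, a share 3.02 times higher in replicate 2, and miRNA genes held 1015 and 2106, a share 5.93 times higher. The share of the members was 2.32 times higher. As a description of the summed counts, the ratio of member to snRNA counts in replicate 2 was 0.768 times that in replicate 1, and the ratio of member to miRNA counts 0.391 times. No p is given for these sums, since copies in these families may share fragments. Of the tested snRNA genes, 76 of 121 were called higher, and their median log2 ratio was 1.88, where that of the members was 1.69. Protein-coding genes had a median of -0.016, with 42 of 4392 called.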

How the data were processed

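The authors deposited 1 table of whole-number counts of fragments per Ensembl transcript for 2 libraries, not normalised, with symbols, biotypes and lengths. Per the submitters' processing notes, Trimmomatic 0.36, Bowtie2 2.2.6, SAMtools and GRCm38.p4 were used. Aligner settings, the counting rule, the annotation release and any ribosomal RNA filter are not given in the sources used here. In 68 pairs of near-identical isoforms, the variance of the scaled count difference was 0.405, where 1 is reached if each fragment is placed once and 0 if it is counted everywhere, so how shared fragments were counted is not settled.

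From these counts a gene was represented by its most counted transcript (the longer one in a tie). CPM and TMM factors (1.07 and 0.931) came from edgeR 4.0.16, computed where the 2 counts of a gene averaged 10 or more. The log2 ratio used a pseudocount of 1 CPM, and its SE covers counting error. Tests were 2-sided exact binomial and Fisher's exact tests in scipy 1.17.1. Only the binomial test was tried on simulated data, which held counting error alone and no shared fragments. Shares carry 95% Wilson intervals. RefSeq GRCm38.p6 gave hosts, neighbours and hairpins, with 1315 members matched; all 1536 were in the name table, 1508 under the same symbol. No genome was used.

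The members, gene lists and tests were chosen with earlier results of these data known. Named were the most abundant tested members per prefix (at most 12 Snord, 10 Snora, 5 Scarna and 5 other, of which 2 Snord and 3 Snora were tested), the 5 highest and 5 lowest log2 ratios, and preset families; the 3 hairpin members, array copies, hosts and further low Snord genes were named after their values were seen. Alternatives changed the scaling (library totals, DESeq2 1.42.0, coding genes), filter, pseudocount, isoform rule, error model, copies and lengths.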

Additional observations from a re-analysis of the deposited data

How the results depend on the processing

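The count of 41 members higher in replicate 2 depended on the settings. It was 25 with library totals (3.66% of all tested genes called), 27 when the filter was 1 count in each library (279 members tested, 1.75% of all genes called), 7 with the preset variation of 0.2 (2.41%), and 14 of 28 without the 2 arrays, an alternative chosen after seeing the data. It was 41 with DESeq2 size factors, 42 with TMM on coding genes and 49 with isoforms summed (7.23% of all genes called). No setting called a member lower. Library totals moved the median of all genes to -0.20 and that of the members to 1.49, a shift that a scaling gives to all genes alike. No member had a mean of at least 50 counts, so that filter gave no value. Detection fell from 470 members to 252 at 3 counts or more and to 102 at 10 or more. The odds ratio of Snord to Snora counts was 0.674 (Fisher's exact test, p = 0.36) on members past the filter. With effective lengths, members under 70 nt reached 167 CPM per kb and those of 70 to 89 nt 95.4. U3.2 moved to -0.00046 with library totals, and Rnu3b4 to -0.033 with library totals and -0.011 under the filter of 1 count. Calls for Scarna13 and Snord116l1 were lost with library totals (exact binomial test, adjusted p = 0.0904 for both). Under the filter of 1 count they were lost again (exact binomial test, adjusted p = 0.148), as was SNORA50.1 (0.0516). With the preset variation these 3 and Snora64 were lost. Leaving out a replicate leaves the single libraries, with a share of 0.641% to 1.48%, and no test per gene. No alternative was run for the host genes. No paired analysis was possible because a single group was sampled. The cause of these changes was not tested.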
